A study of Homo sapiens with 3 samples.

Results

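CAMKK1, RALGDS and INAFM2 carried CRY1 peaks as strong as those of the core clock genes in C4-2 cells, although none of the 3 is a clock gene. A peak was taken as theirs when its summit, the base of highest read pileup, lay inside the gene body or within 50 kb of it. This gave 6 of the 2551 peaks in the list: 3 at CAMKK1, 2 at RALGDS and 1 at INAFM2. The genes were selected on the measured strength of these peaks, so fold enrichment, −log10 q and rank are given below as a description, with no test. For each gene, the peak with the highest −log10 q is called its lead peak and the others its satellite peaks.

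The study mapped CRY1 on chromatin by ChIP-seq in C4-2 cells, a widely used human prostate cancer line able to grow without testicular androgens. All libraries came from cells labelled as vehicle (Veh) and kept in hormone-proficient medium, and no cells without CRY1 were used here. There were 3 libraries: 2 CRY1 immunoprecipitations and 1 input of sheared chromatin. Peaks were called by the authors on the combined immunoprecipitations, so replicate error is unknown for every value, a peak seen in 1 replicate cannot be told from a peak seen in both, and sequencing depth is unknown from the list. Fold enrichment is the authors' linear ratio of pileup to local background at the summit.

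CRY1 is a repressor of the circadian clock. It has no sequence-specific DNA-binding domain of the usual kind and is brought to chromatin mainly through CLOCK and BMAL1, which bind the E-box CACGTG and drive the PER, CRY and REV-ERB genes that CRY1 and PER proteins in turn repress. CAMKK1 encodes a calcium/calmodulin-dependent kinase that switches on the kinases CAMK1 and CAMK4. RALGDS encodes an exchange factor that loads the small GTPases RALA and RALB with GTP and is itself an effector of RAS. INAFM2 is a small and little characterised gene named for the InaF motif of its product.

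The sequences at the 3 lead summits are shown first because they differ in the feature the clock factors read. They are plus-strand GRCh37 (hg19) sequence, with 100 bases before the summit and every E-box in capitals. The CAMKK1 window spans 17:3795430-3795680, the RALGDS window 9:136024783-136024983 and the INAFM2 window 15:40615608-40615808.
CAMKK1 lead: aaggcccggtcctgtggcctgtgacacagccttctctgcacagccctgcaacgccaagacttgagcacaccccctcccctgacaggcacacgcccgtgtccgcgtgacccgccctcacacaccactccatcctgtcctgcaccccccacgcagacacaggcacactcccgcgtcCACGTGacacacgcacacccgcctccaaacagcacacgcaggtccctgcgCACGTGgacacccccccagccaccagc
RALGDS lead: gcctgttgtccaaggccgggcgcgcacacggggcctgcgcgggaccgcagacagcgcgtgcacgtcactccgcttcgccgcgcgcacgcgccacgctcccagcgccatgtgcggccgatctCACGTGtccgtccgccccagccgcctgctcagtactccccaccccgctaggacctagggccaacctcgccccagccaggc
INAFM2 lead: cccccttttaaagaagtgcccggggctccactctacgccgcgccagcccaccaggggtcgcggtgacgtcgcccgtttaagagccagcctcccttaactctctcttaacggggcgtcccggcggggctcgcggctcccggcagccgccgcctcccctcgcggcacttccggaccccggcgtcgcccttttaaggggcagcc
The CAMKK1 window held 2 E-boxes, both to one side of the summit, the RALGDS window held 1 close to the summit, and the INAFM2 window held 0.

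The CAMKK1 lead peak (17:3794815-3796867) had the highest fold enrichment of the list, 24.0, and ranked 4 by −log10 q, at 80.5. The INAFM2 lead peak (15:40615430-40616041) ranked 7 by fold enrichment, at 21.6, and 6 by −log10 q, at 78.4. The RALGDS lead peak (9:136023919-136026011) ranked 17 by fold enrichment, at 18.1, and 5 by −log10 q, at 79.0. The members thus took ranks 4, 5 and 6 by −log10 q, just ahead of PER3, NR1D1 and NR1D2, which were tied at 77.8. Over all peaks, the median fold enrichment was 5.18 and the median −log10 q 6.02.

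Each lead peak was also the strongest of its chromosome by both measures. On chromosome 17, which held 194 peaks, the next highest fold enrichment was 18.2, at LINC01970. On chromosome 9, with 136 peaks, it was 13.5 at MIRLET7A1HG, and on chromosome 15, with 75 peaks, it was 19.4 at CLN6. These are ranks within the pooled list and carry no replicate error.

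Clock genes gave the scale for these values. The strongest peak within 5 kb of a transcription start site (TSS) was taken for each of 13 clock genes (PER1, PER2, PER3, CRY1, CRY2, NR1D1, NR1D2, DBP, TEF, HLF, CIART, BHLHE40 and BHLHE41), and their fold enrichment ran from 7.99 at BHLHE41 to 22.8 at PER2, with a median of 15.2. PER2 was the only one above INAFM2 and RALGDS, and none was above CAMKK1. By −log10 q PER2, at 88.5, was again the only one of the 13 above the 3 lead peaks.

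**Figure D1:**
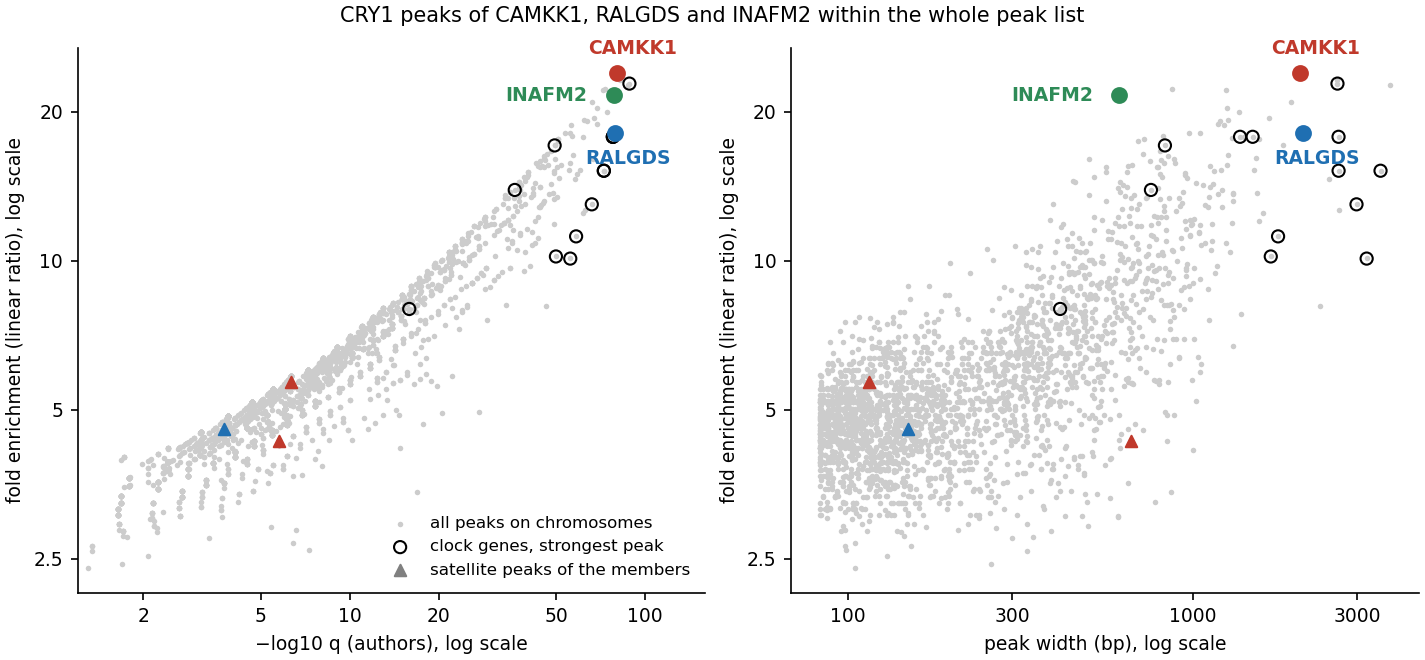
Fold enrichment of each CRY1 peak (log scale) against its −log10 q (left, log scale) and its width in bp (right, log scale). Grey points are the 2549 peaks on chromosomes, open circles the strongest peaks of 13 clock genes, coloured points the 3 lead peaks and triangles their 3 satellite peaks. The lead peaks sit at the upper end of both strength measures, and INAFM2 is set apart to the left by its width of 612 bp.

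Peak width separated INAFM2 from the other members. CAMKK1 and RALGDS had peaks of 2053 and 2093 bp, ranks 13 and 12 in the list, where the median was 181 bp. The INAFM2 peak was 612 bp wide, rank 299, and was the narrowest of the 20 peaks with the highest −log10 q. The next narrowest of these was 873 bp, and their median was 1580 bp. The clock peaks spanned 413 to 3503 bp with a median of 1768 bp. The INAFM2 and RALGDS summits lay near the middle of their peaks, at 45.4% and 46.1% of the width counted from the lower coordinate, and the CAMKK1 summit lay at 34.8%.

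CAMKK1 lies on the minus strand of chromosome 17, from 3763609 to 3798185, with 4 annotated transcripts that each have a TSS of their own. The lead summit, at 3795530, fell in intron 1 of CAMKK1-202, the canonical transcript, 817 bp downstream of its TSS. It was 808 bp downstream of the TSS of CAMKK1-201, and both of these start sites lay inside the peak. Another protein-coding transcript, CAMKK1-203, starts 1493 bp further along the gene from the summit, outside the peak. Annotated exons took up 5.60% of the peak (115 bp), so most of the interval was intron and upstream sequence.

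The 3 E-boxes of the CAMKK1 lead peak all lay between the start sites and the summit. They were 77, 127 and 340 bp from the summit, which is 731, 681 and 468 bp downstream of the CAMKK1-201 TSS. With their flanks they read cgcgtcCACGTGacacac, cctgcgCACGTGgacacc and gaaccgCACGTGggtgcc on the plus strand. Among all summits, 119 (4.67%) had at least 3 E-boxes within 500 bp. None of the CAMKK1 sites lay within 50 bp of the summit itself. The hexamers nearest the summit that differ from CACGTG by a single base were CCCGTG and CGCGTG, at 5 and 3 bp.

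CAMKK1 had satellite peaks on both sides of its lead peak. Satellite 1 (17:3798262-3798376) was 115 bp wide, 5.69-fold enriched, with −log10 q at 6.35. Its summit lay 2787 bp upstream of the lead summit and 132 bp upstream of the TSS of CAMKK1-204, a retained-intron transcript. It held no E-box within 500 bp. Satellite 2 (17:3791658-3792320) lay 3793 bp downstream of the lead summit, in intron 1, and was 4.33-fold enriched, with −log10 q at 5.75. The lead peak was 4.22 and 5.54 times as enriched as these satellites.

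Satellite 2 was broad for its strength, at 663 bp, and its summit sat at 11.9% of the width. Its window (17:3791687-3791847, with 50 bases before the summit) is shown because its only E-box has the same 8 letters, GCACGTGG, as the E-boxes 127 and 340 bp from the lead summit.
CAMKK1 satellite 2: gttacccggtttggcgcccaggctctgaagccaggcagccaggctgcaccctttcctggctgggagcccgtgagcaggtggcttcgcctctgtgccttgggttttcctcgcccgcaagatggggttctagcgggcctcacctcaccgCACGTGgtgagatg
That E-box lay 100 bp from the satellite summit, inside the peak. Read on either strand, GCACGTGG was the most frequent form among the 1344 E-boxes within 50 bp of any summit (236 of them, 17.6%). The remaining CAMKK1 site, CCACGTGA, had the second most frequent form, with 229 (17.0%).

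RALGDS spans 51.6 kb on the minus strand of chromosome 9, from 135973107 to 136024721, with 15 annotated transcripts. Its lead summit, at 136024883, lay 162 bp upstream of the TSS of RALGDS-205, the outermost start site of the gene. The canonical transcript, RALGDS-202, starts 28256 bp further along. The strong CRY1 peak was therefore at an alternative promoter. Protein-coding transcripts RALGDS-203 and RALGDS-204 start between these points, 18379 and 20095 bp from the lead summit, and no summit lay nearer to their start sites than 5 kb.

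The satellite peak of RALGDS was at the canonical promoter. It (9:135996666-135996815) was 150 bp wide, 4.58-fold enriched, with −log10 q at 3.75, and its summit lay 109 bp upstream of the RALGDS-202 TSS. The start sites of RALGDS-201 and RALGDS-213 followed 173 and 193 bp from this summit. The lead peak was 3.96 times as enriched as the satellite, and 28147 bp separated their summits. A single start site lay inside the lead peak, that of RALGDS-205, whereas the canonical start site lay just outside the satellite.

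Both RALGDS promoters held an E-box with the same 8 letters, TCACGTGT, upstream of the start site on the gene's strand. In the lead peak it was 24 bp from the summit and 186 bp upstream of the RALGDS-205 TSS. At the satellite it was 146 bp from the summit and 255 bp upstream of the RALGDS-202 TSS, beyond the edge of the peak. The satellite window (9:135996686-135996886, with 50 bases before the summit) shows that site at its right end.
RALGDS satellite: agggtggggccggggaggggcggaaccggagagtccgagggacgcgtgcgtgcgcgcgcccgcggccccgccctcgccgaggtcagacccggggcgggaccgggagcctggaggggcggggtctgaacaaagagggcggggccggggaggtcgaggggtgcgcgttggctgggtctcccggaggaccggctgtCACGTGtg
The TCACGTGT form made up 12.4% (166) of the 1344 E-boxes within 50 bp of a summit, the fourth most frequent. The satellite window also held 5 GC boxes (GGGCGG, either strand), of which 3 lay within 50 bp of the summit, and the 50 bp on each side of the summit were 82.2% G and C.

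INAFM2 is a short gene of 3.02 kb on the plus strand of chromosome 15, from 40615893 to 40618916. Its lead summit, at 40615708, lay 185 bp upstream of the TSS of INAFM2-202, the canonical transcript, which has 1 exon. The peak ran across that start site and covered 149 bp of the exon, 24.3% of its width. A further transcript, INAFM2-201, starts 1709 bp downstream of the summit, outside the peak.

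INAFM2 differed from the other members in holding no E-box. There was none in the peak or within 500 bp of the summit, and the nearest lay 7083 bp away. The related site CACGTT (the E′-box) was found 289 bp from the summit, just outside the peak, and the nearest CANNTG of any kind was 205 bp away. Within 50 bp there was not even a hexamer with a single mismatch to CACGTG. That was true of 612 of all 2549 summits, while the median summit had 1 and the RALGDS lead summit had 5, its exact site included.

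**Figure D2:**
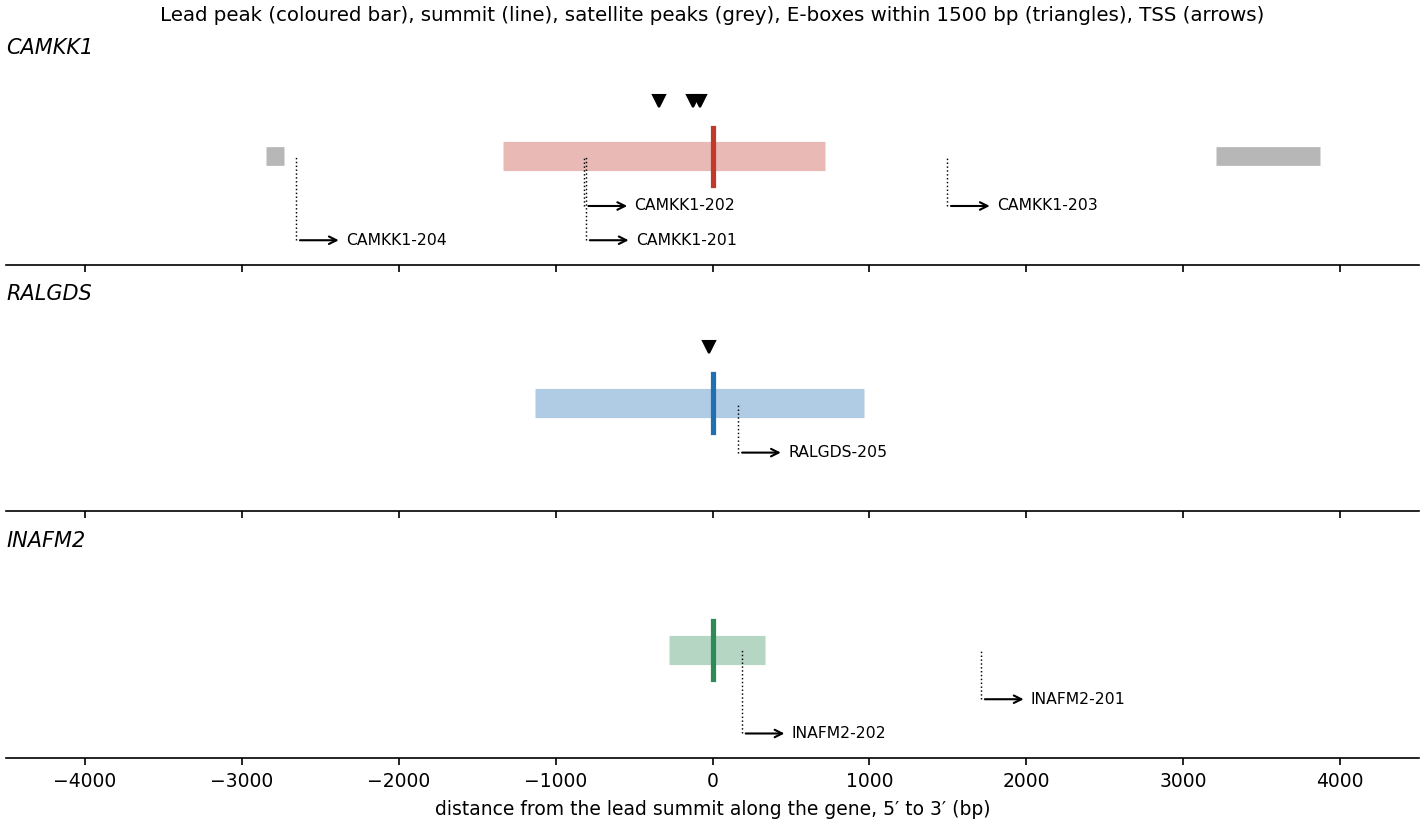
Lead peaks of the 3 genes drawn to scale along the gene, 5′ to 3′, in bp from the lead summit. Coloured bars are lead peaks, vertical lines summits, grey bars satellite peaks, triangles E-boxes within 1500 bp of the summit, and arrows annotated TSS. The 3 E-boxes of CAMKK1 lie between its start sites and the summit, RALGDS has 1 beside the summit, and INAFM2 has none.

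Some other strong peaks also lacked an E-box close to the summit, although most of the strongest had one. An E-box lay within 50 bp of 1 of the 6 member summits (16.7%, Wilson 95% interval 3.01 to 56.4%), against 47.8% of all summits. Among the 13 clock peaks it was 4 (30.8%). Among the 20 peaks with the highest −log10 q it was 11 (55%), and among the top 100 it was 63%. Within 100 bp an E-box was found at 2 of the 6 member summits and 54.6% of all summits. Within 150 bp it was 4 of the 6 (66.7%), above the 56.7% of all summits. Within 500 bp it was 4 of the 6 member summits, 8 of the 13 clock summits and 75.6% of all summits. The intervals cover the counting of peaks only, and peaks of one gene share a locus, so no difference from the list was tested.

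Clock peaks gave examples of both kinds. NR1D1, the gene of the repressor REV-ERBα, had 2 E-boxes within 50 bp of its summit. PER2 had none within 500 bp, and neither did CRY1, CRY2, DBP or HLF. The CRY2 summit did have the related site CACGTT within 50 bp. The summit taken for DBP was nearest to a start site of SEC1P, 311 bp away. Another summit, with a fold enrichment of 12.7, lay 3.06 kb from the DBP summit. The windows at NR1D1 (17:38255358-38255458) and PER2 (2:239197546-239197646), with 50 bases on each side of the summit, are printed for comparison with RALGDS and INAFM2.
NR1D1: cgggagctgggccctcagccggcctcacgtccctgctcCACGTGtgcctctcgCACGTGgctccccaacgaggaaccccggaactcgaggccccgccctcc
PER2: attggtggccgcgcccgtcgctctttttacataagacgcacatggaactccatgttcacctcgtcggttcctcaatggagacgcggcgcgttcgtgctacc
Of the 20 peaks with the highest −log10 q, 4 had no E-box within 500 bp, INAFM2 and PER2 among them. For all summits that share was 24.4%. PER2 had an E-box just beyond that window, 507 bp from its summit and inside its peak, whereas the INAFM2 peak held none.

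**Figure D3:**
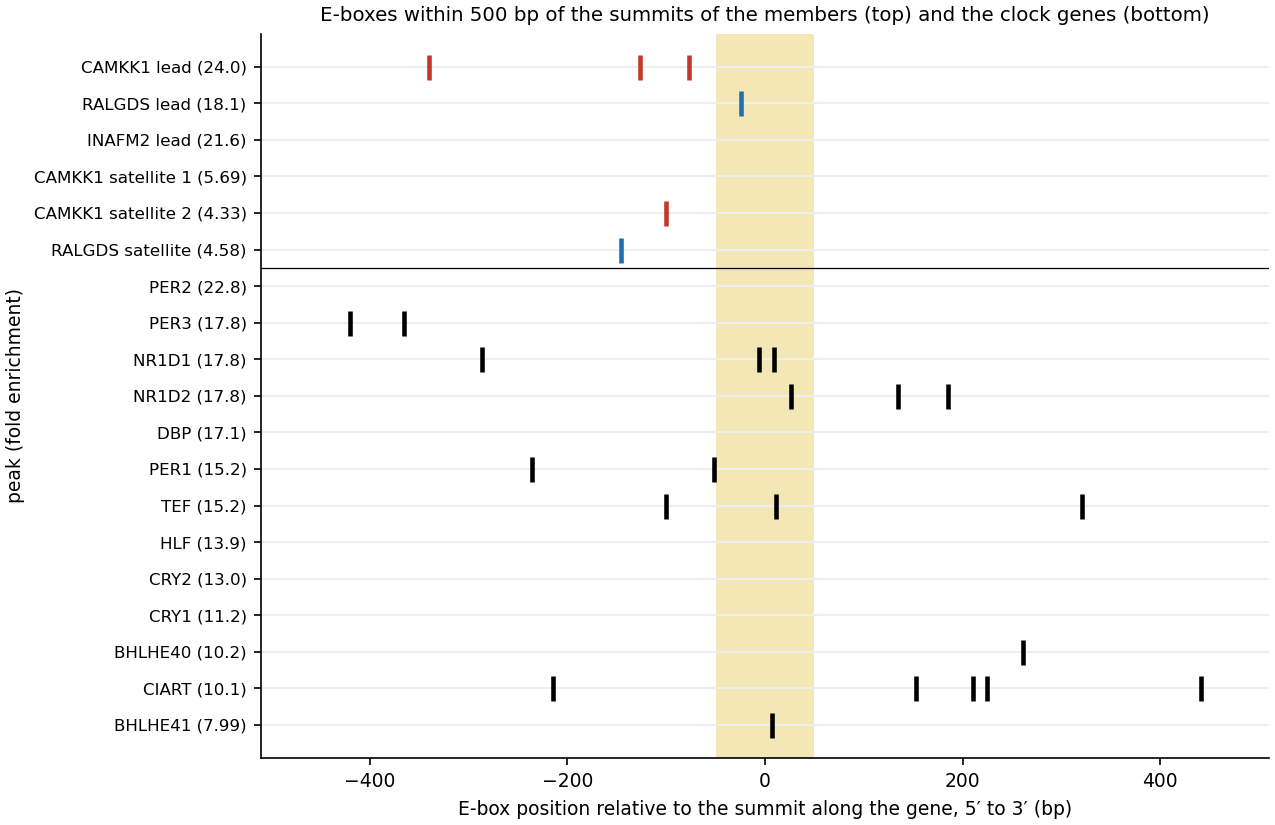
Position of each E-box within 500 bp of the summit, in bp along the gene, for the 6 member peaks (top) and the strongest peaks of 13 clock genes (bottom), with fold enrichment in parentheses. The shaded band marks 50 bp on each side of the summit. Of the member peaks the RALGDS lead has a site in the band, and the INAFM2 lead and CAMKK1 satellite 1 have no site within 500 bp.

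A tandem arrangement, an E-box with a second E-box-like hexamer (at most 1 mismatch) 6 or 7 bases away, is a known form of clock binding site. It was present at 0 of the 3 lead summits and at 2.75% of all summits (70), NR1D1 among them. The other sequence elements searched within 50 bp on both strands were mostly missing from the leads. There was no CCAAT box, CRE (TGACGTCA), AP-1 site (TGANTCA), ETS site (CCGGAAGT), NRF1 site, D-box (TTATGTAA or TTACGTAA) or androgen receptor half-site (AGAACA) at any of them. These were held by 8.91%, 0.235%, 2.51%, 0.785%, 0.0392%, 0.275% and 4.32% of all summits, in that order.

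Shorter, GC-rich elements were more frequent. A GC box was found at the CAMKK1 and RALGDS lead summits, once each, and at 27.0% of all summits. The hypoxia cores ACGTG and GCGTG, which overlap the E-box, occurred 3 times at CAMKK1 and 6 times at RALGDS, and 67.4% of all summits held at least 1. INAFM2 had 0 of either. A match is a description of letters in this window and does not show that a factor bound there.

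The 3 lead summits lay in sequence richer in G and C than the median summit. GC content within 50 bp of the summit was 68.3% at CAMKK1, 72.3% at INAFM2 and 74.3% at RALGDS, against a median of 64.4%. In that order, these values were higher than at 63.4%, 75.5% and 81.9% of summits or equal to them. The ratio of observed to expected CpG within 150 bp was 1.04 at RALGDS and 1.01 at INAFM2, higher than at 95.1% and 93.3% of summits or equal to them. It was 0.617 at CAMKK1, below the median of 0.681. None of the 6 member windows held a 32-base word found elsewhere in the genome.

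The 300-base promoter windows of RefSeq (250 bases before to 50 after each start, GRCh38.p14) held no E-box at any of the 7 annotated starts of the 3 genes. Of all 35116 windows, 7.26% held 1 or more. The sequence of each of the 7 was found in GRCh37, and the INAFM2 window contained the lead summit. At CAMKK1 and RALGDS the E-boxes described above therefore lay outside these windows, within the first intron and further upstream. At RALGDS they lay close to the window edges. The window at the canonical start ended at 135996877, and the E-box there began at 135996879. The outermost window ended at 136024847, and the E-box of the lead peak began at 136024904.

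The neighbourhoods of the 3 lead peaks differed in how many other peaks they held. Another summit lay within 10 kb of the CAMKK1 lead summit, which had 2, and of 40.7% of all summits. RALGDS and INAFM2 lead summits had 0. Among the 20 peaks with the highest −log10 q, 10 had such a neighbour. The INAFM2 peak stood alone over a long stretch, with the nearest other summit 220 kb away, at BMF.

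Other genes lay within 50 kb of each lead summit. CAMKK1 had 3 protein-coding neighbours, all on the minus strand: P2RX1, an ATP-gated ion channel, with its nearest TSS 12.5 kb away, ATP2A3, a calcium pump of the endoplasmic reticulum, at 36.4 kb, and NCBP3, an RNA cap-binding protein, at 46.0 kb. RALGDS had 2, the glycosyltransferase gene GBGT1 at 14.2 kb and an unnamed protein-coding gene (ENSG00000285245) that overlaps most of RALGDS and of GBGT1, at 14.4 kb. INAFM2 had 6: CCDC9B at 14.5 kb, PLCB2, a phospholipase C, at 15.6 kb, PHGR1 at 27.5 kb, DISP2 at 34.7 kb, ANKRD63 at 40.4 kb and PAK6, a kinase known to bind the androgen receptor, at 49.6 kb. In all 3 loci the member's own start site was the nearest to the lead summit.

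**Figure D4:**
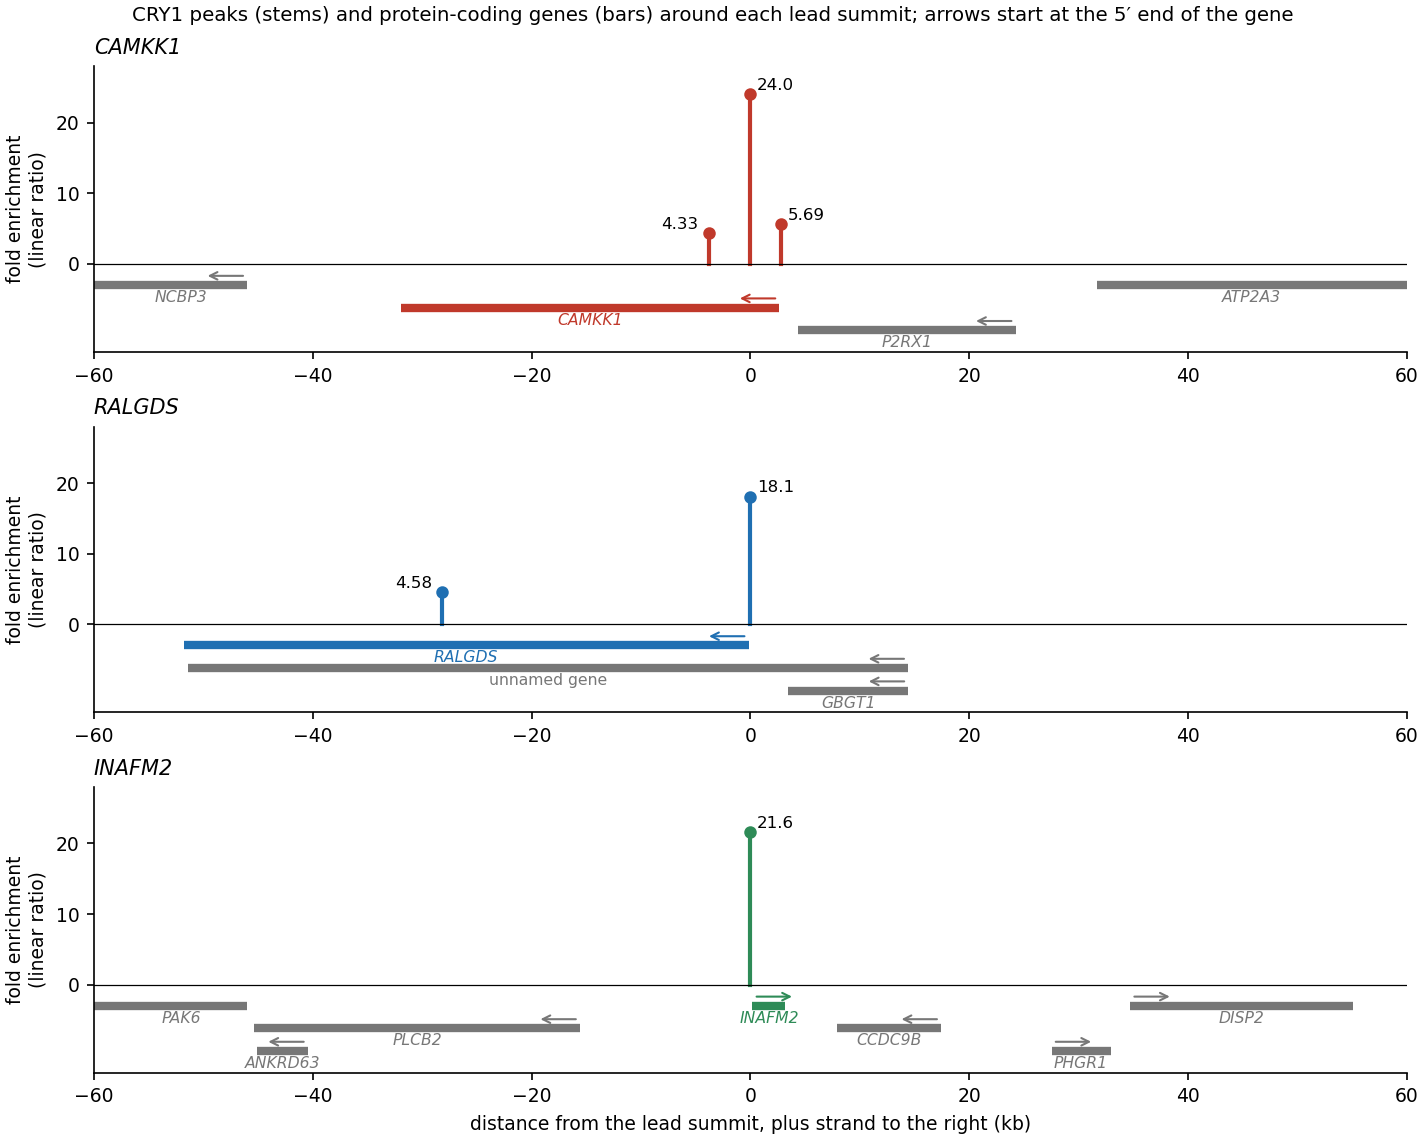
CRY1 peaks as stems, with fold enrichment as a linear ratio, against distance from the lead summit in kb, with protein-coding genes as bars below and arrows at their 5′ ends. CAMKK1 has satellites of 5.69 and 4.33 within 4 kb of the lead, RALGDS has 1 of 4.58 at the canonical start site, and INAFM2 has none.

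The limit of 50 kb did not decide which peaks were counted. The outermost counted summit lay 0.132 kb outside the gene body at CAMKK1, 0.162 kb at RALGDS and 0.185 kb at INAFM2. The nearest peaks beyond the limit were 470 kb from CAMKK1, with a fold enrichment of 5.21, 178 kb from RALGDS, with 5.60, and 220 kb from INAFM2, with 8.35.

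CRY1 peaks at other genes of the members' pathways were counted from 3 gene lists. Over all 20163 protein-coding genes, 8.22% had a TSS with a summit no more than 5 kb away. In the calcium/calmodulin kinase cascade it was 3 of 17 genes (17.6%), CAMKK1 included, and 2 of 16 (12.5%) without CAMKK1, which was selected for its peak. Beside CAMKK1 these were CAMKK2, its paralogue, with a fold enrichment of 4.26 and a summit 11 bp from the nearest TSS, and STK11. The latter, the kinase LKB1 that like CAMKK2 activates AMPK, had 8.71, with a summit 4137 bp from the nearest TSS. The kinases that CAMKK1 switches on, CAMK1 and CAMK4, had their nearest summits 164 and 276 kb away. CAMKK1 and CAMKK2 thus differed by rank 4 against rank 1854 in −log10 q.

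In the Ral GTPase pathway 4 of 30 genes (13.3%) had a peak, RALGDS included, and 3 of 29 (10.3%) without RALGDS, which was selected for its peak. HRAS, one of the RAS proteins that recruit RALGDS, had a peak with a fold enrichment of 16.3 and −log10 q at 56.9, rank 31 in the list, with a summit 80 bp from a TSS. TBK1, a kinase engaged downstream of RALB, had 4.78, and EXOC3, a subunit of the exocyst that RAL proteins bind, had 4.60, with its summit nearest to the start of EXOC3-AS1. RALA and RALB themselves had none within 5 kb, the nearest to RALB being 16.9 kb away, and the RALGDS relatives RGL1, RGL2, RGL3 and RGL4 had none nearer than 63.5 kb.

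Of the InaF-motif pair, INAFM2 had a peak and INAFM1 had none. Among the 5 pathway genes other than the members, the strongest nearby summit had an E-box within 50 bp at STK11 (34 bp), HRAS (24 bp), TBK1 (15 bp) and EXOC3 (40 bp). The nearest to that of CAMKK2 was at 213 bp. Of all summits, 47.8% had an E-box within 50 bp. With so few genes in each list, these shares describe the lists and were not tested. RNA levels of the 3 genes were not analysed here.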

How the data were processed

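CRY1 ChIP-seq in C4-2 cells comprised 2 immunoprecipitations and 1 input from vehicle-labelled cells, grouped by their titles. According to the methods of the study, reads were aligned to hg19 with bowtie2 at default settings and peaks called with MACS2 on combined replicates at q < 0.05. Use of the input as control was presumed, and treatment of duplicate reads was not given in the sources used here. The deposited list gives each peak a fold enrichment (a linear ratio), −log10 p and −log10 q by the authors, and a deposited score equal to the whole part of 10 times −log10 q. Positions were converted to 1-based.

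Sequence came from GRCh37, the same build, and genes from GENCODE release 44 mapped to it. Of the peaks, 2 on unplaced contigs were left out of what needs the genome. A promoter ran from 1 kb upstream to 100 bp downstream of any TSS. Motifs were counted on both strands within 50 bp of summits with the whole motif inside the window, and distances to an E-box run from the summit to the G of its central CG on the plus strand. Python 3.11.15, pandas 2.3.3, pysam 0.24.0 and samtools 1.23.1 were used, and counting was tested on simulated sequence. The members, gene lists and motifs were chosen with earlier results of these data known. Named genes were the members, genes within 50 kb of a lead summit, clock genes, leading peaks and pathway genes. Some leading peaks and pathway genes are not reported here. Alternatives covered the annotation, windows, ranking and thresholds. No test was run, since peaks were pooled and the members selected on strength.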

Additional observations from a re-analysis of the deposited data

How the results depend on the processing

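Of 100 values recomputed under alternatives, 69 stayed within the limits set, 30 moved further and 1 changed direction. With 1 canonical transcript per gene, the TSS nearest to the RALGDS lead summit was 14418 bp away, that of the unnamed gene ENSG00000285245, with the summit downstream of it. Measured from the peak's midpoint, the distance from the TSS was 497 bp at CAMKK1 and −244 bp at RALGDS (negative is upstream). Counting only summits inside the gene body left 3 peaks in all. The RALGDS and INAFM2 lead peaks, with summits 162 and 185 bp upstream of the gene, were not among them. CAMKK1 ranked 4 by −log10 q or −log10 p and 13 by width, RALGDS ranked 5 by −log10 q or −log10 p, and INAFM2 ranked 299 by width and 4 among promoter peaks. E-boxes at the CAMKK1 lead numbered 1 within 100 bp or around the midpoint, 2 within 150 bp, and 3 within 500 bp or the whole peak. At RALGDS there were 0 within 25 bp or around the midpoint and 2 of any CANNTG. Hexamers with at most 1 mismatch, an alternative chosen after seeing the data, numbered 2 at CAMKK1 and 5 at RALGDS. The share of member summits with an E-box was 0% within 25 bp and 66.7% within 500 bp. For all summits it was 29.6% within 25 bp, 54.6% within 100 bp, 75.6% within 500 bp, 52.7% outside promoters and 63.0% in the top 100. Ral pathway genes with a peak, RALGDS included, numbered 7 (23.3%) within 50 kb of a TSS or of the gene body. For all genes it was 20.4% and 22.1%. At a fold enrichment of at least 5 they numbered 2 (6.67%), against 5.49%. Without RALGDS, which was selected for its peak, these were 6 of 29 (20.7%) and 1 of 29 (3.45%). The calcium/calmodulin list without CAMKK1 had 2 of 16 (12.5%) within 50 kb and 1 of 16 (6.25%) at that fold enrichment. With promoter summits only it had 1 of 16 (6.25%), and the Ral list without RALGDS 3 of 29 (10.3%), against 5.64%. These shifts follow from the windows and sets themselves. No paired analysis was possible because peaks were called on pooled replicates, and for the same reason leaving out a replicate was not run. Depth is unknown from the list, so the strength of a single peak carries no error.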

Other observations

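The INAFM2 summit window held an element that none of the searched motifs covers. The letters TTAA occurred 5 times in the INAFM2 window printed above, within 100 bp of the summit, where G and C made up 70.6% of bases. They were looked for after the sequence had been read, so the count is a description with no test. Of all 2549 summits, 8 (0.314%) had at least 5, and 72.6% had 0. Of the 746 summits with at least the GC content of INAFM2, it was the only 1 with as many. The CAMKK1 and RALGDS lead windows of the same length held 0. The searched motifs were counted within 50 bp only, so the 2 counts cover unlike windows. Further out, the printed INAFM2 window also held ACTTCCGG, the ETS site CCGGAAGT on the opposite strand.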
